A study of Mus musculus with 12 samples.

Results

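The interferon regulatory factors (IRFs) measured here were Irf1, Irf2, Irf3, Irf4, Irf5, Irf7, Irf8 and Irf9, with Batf2 added as a partner of the family that is not itself an IRF. They were picked by gene name and make up 9 of the 47937 genes in the deposited table. Each of the 9 names matched exactly 1 gene, and 9 of 9 had enough reads to be tested.

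IRFs are transcription factors that bind DNA through a conserved tryptophan-rich domain and recognise GAAA repeats, the core of the interferon-stimulated response element (ISRE). Some are present at rest and are switched on by phosphorylation downstream of Toll-like receptors or nucleic acid sensors (Irf3, Irf5), and others are made in response to interferon (Irf1, Irf7, Irf9), often through STAT proteins that bind the gamma-activated sequence (GAS). In macrophages Irf1, Irf5 and Irf8 are best known for the response to IFNγ and LPS, and Irf4 for alternative activation.

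RNA came from macrophages grown for 7 days from C57BL/6 bone marrow in 20 ng/ml CSF-1, a culture that all 4 groups shared. Resting macrophages (M0) and macrophages exposed for 18 h to IFNγ (50 ng/ml) plus LPS (20 ng/ml) were compared with and without T863, a small-molecule inhibitor of DGAT1 (DGAT1i, 50 μM), the enzyme that makes triacylglycerol from diacylglycerol. M0 and IFNγ + LPS thus name the groups without inhibitor, and DGAT1i is added to the name where it was given. The labels give 18 h for every group but M0, and 2 of the 3 M0 libraries with DGAT1i carry a neighbouring compound number in place of T863. Each group had 3 libraries. The labels do not say whether these came from separate mice or cultures, so p-values measure the spread between these libraries, which may be technical.

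Total reads per library ran from 4996014 to 6621671, and 1 CPM (a read count scaled to the library size and its TMM factor) stood for 4.28 to 7.58 reads. Libraries of a group differed by 1.90 to 3.96 times the counting noise (chi-square per gene). The macrophage markers Adgre1, Csf1r, Cd68, Itgam, Fcgr1, Mertk and Lyz2 were read in each library, with a summed level between 7818 and 17985 CPM. Markers of B cells, T and NK cells and stromal cells summed to at most 4.83 CPM per cell type in any library. Neutrophil markers summed to 15.2 to 25.5 CPM in IFNγ + LPS and 63.0 to 81.0 CPM in IFNγ + LPS with DGAT1i, with Elane and Ly6g at 0 reads in both groups. Dendritic cell markers summed to 0.133 to 0.835 CPM in M0, 14.4 to 19.6 CPM in IFNγ + LPS and 6.38 to 9.11 CPM in IFNγ + LPS with DGAT1i, with Cd209a and Siglech at 0 reads in the last pair of groups. In such bulk RNA, fewer cells of a type and less RNA per cell cannot be told apart.

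Promoter windows of 250 bases before the RefSeq start were taken from RefSeq on GRCm38.p6, and 8 of the 9 members matched an entry. They were searched on both strands for the letters of an ISRE (GAAA, any 2 bases, GAAA) and of a GAS (TTCNNNGAA, which reads the same on both strands). GAS letters stood in the windows of Irf1, Irf2 and Irf8, and ISRE letters in that of Irf2. Of all 32851 RefSeq promoter windows of this length, 7.02% held the GAS letters, 2.98% the ISRE letters and 0.332% both, as the window of Irf2 did. The windows of Irf3, Irf4, Irf5, Irf7 and Irf9 held neither set of letters. Irf1, Irf8 and Irf9 had 2 windows each, and the second windows of Irf1 and Irf8 held neither set as well. Both Irf9 windows lay past the annotated start of the gene, with 250 and 88 bases in its own exons. The bases before that start were not searched. In the Irf3 window, 181 bases lay in exons of Bcl2l12. The windows with a match are printed 5′ to 3′ on the strand of the gene, and so is that of Irf7, which with Batf2 rose most. Capitals mark ISRE or GAS letters, which do not overlap each other, and bases that the annotation places in an exon of the gene itself were left off the end.
Irf1 (chr11:53769764-53770013, + strand): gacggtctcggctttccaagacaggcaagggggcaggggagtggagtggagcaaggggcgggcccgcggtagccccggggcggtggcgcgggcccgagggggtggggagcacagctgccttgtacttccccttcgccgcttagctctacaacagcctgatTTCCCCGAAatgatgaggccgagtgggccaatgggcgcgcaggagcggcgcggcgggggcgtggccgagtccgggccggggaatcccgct
Irf2 (chr8:46739495-46739731, + strand): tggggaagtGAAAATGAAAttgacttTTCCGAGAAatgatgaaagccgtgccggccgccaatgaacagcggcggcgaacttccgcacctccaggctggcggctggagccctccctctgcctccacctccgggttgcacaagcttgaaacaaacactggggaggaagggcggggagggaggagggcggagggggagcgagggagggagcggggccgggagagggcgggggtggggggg
Irf8 (chr8:120736108-120736357, + strand): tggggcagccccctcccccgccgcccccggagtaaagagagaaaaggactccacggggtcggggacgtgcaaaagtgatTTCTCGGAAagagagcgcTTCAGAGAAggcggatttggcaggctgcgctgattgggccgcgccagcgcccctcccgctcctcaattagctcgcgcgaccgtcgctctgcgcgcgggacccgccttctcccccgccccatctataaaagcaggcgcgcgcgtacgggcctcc
Irf7 (chr7:141266482-141266674, - strand): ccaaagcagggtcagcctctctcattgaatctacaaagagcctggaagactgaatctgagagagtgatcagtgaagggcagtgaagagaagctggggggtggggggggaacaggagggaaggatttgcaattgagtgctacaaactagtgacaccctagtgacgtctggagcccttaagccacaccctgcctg

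Counted back from the RefSeq start, the GAS letters of Irf1 lay at -90 to -82. Irf8 held GAS letters at -171 to -163 and again at -153 to -145. In Irf2 the ISRE letters at -241 to -232 came just before the GAS letters at -224 to -216. Letters of the NF-kB type (GGG, any 5 bases, CC, on either strand) were found in at least 1 window of each of the 8 members, but also in 45.8% of all promoter windows. A match of letters describes the sequence and is not a measured binding site.

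IFNγ + LPS raised 7 of the 9 members and lowered 1. Irf7, Batf2 and Irf1 rose by 118-fold, 116-fold and 47.1-fold, Irf8 and Irf5 by 5.32-fold and 3.73-fold, and Irf9 and Irf2 by 1.91-fold and 1.80-fold. Irf4 fell, and Irf3 did not pass the test. A gene was called when its p from the quasi-likelihood test of edgeR, adjusted over 11760 genes by Benjamini and Hochberg, was under 0.05, and 73.3% of all genes tested were called in this comparison (37.1% higher, 36.2% lower). The 3 libraries of IFNγ + LPS did not overlap the 3 of M0 for 8 members, against 75.4% of all genes tested. The median log2 fold change was 1.90 over the members and 0.01 over all genes. With scaling by library size only, the median of all genes moved to -0.46, and the split of calls from 4361 higher and 4254 lower to 2340 and 7002, while 7 members were still called higher. Under that scaling the log2 fold changes of Irf2 and Irf9, the smallest of the 7, were 0.38 and 0.46 in place of 0.85 and 0.93.

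**Figure D1:**
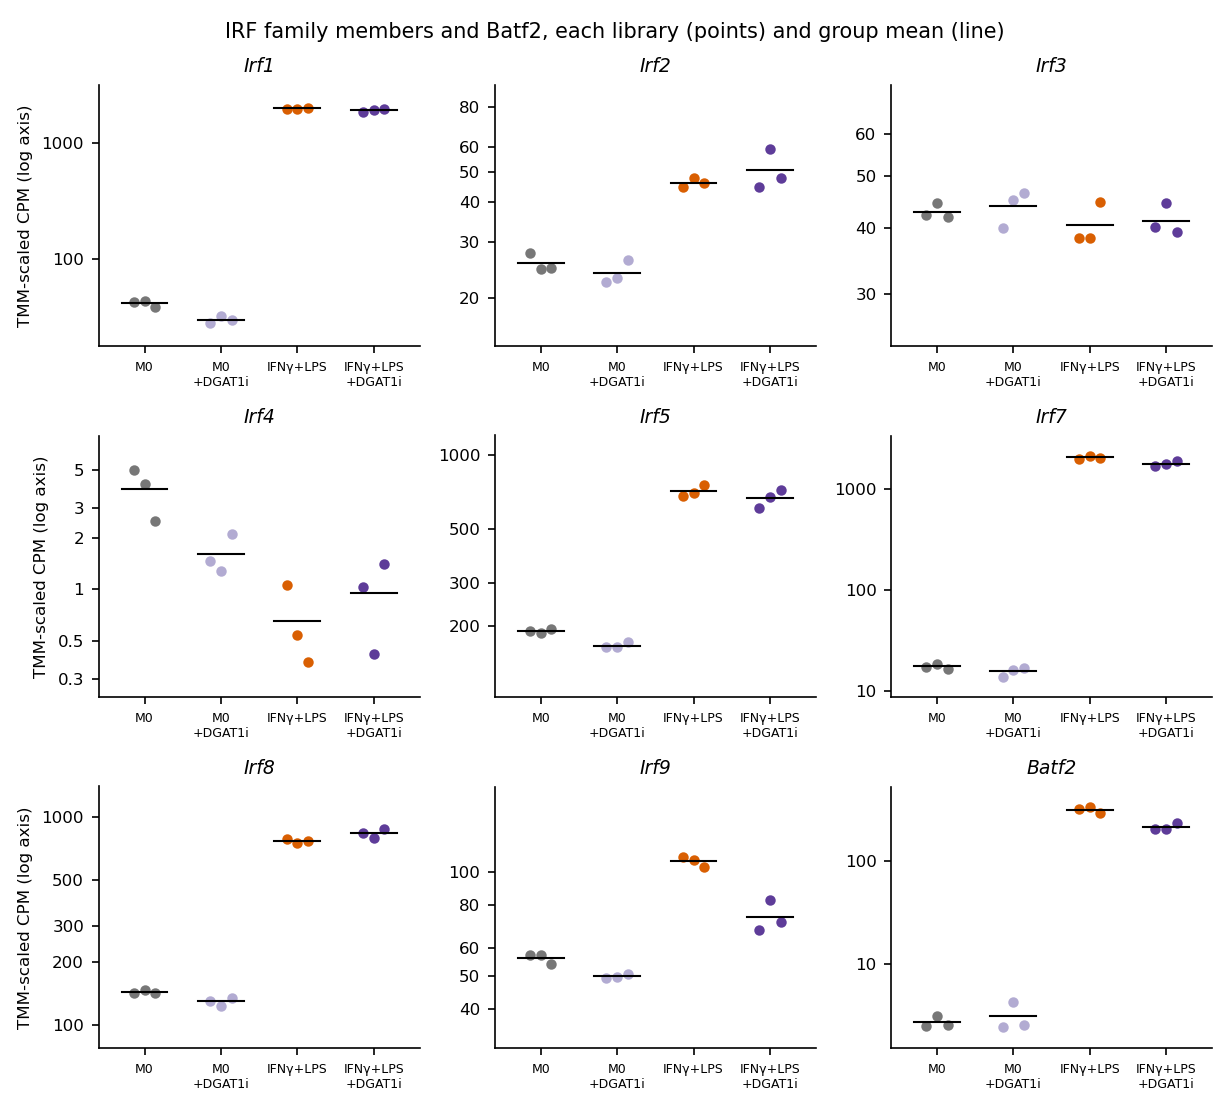
TMM-scaled CPM of each member (log axis, 1 panel per gene, each with its own range) in M0, M0 with DGAT1i, IFNγ + LPS and IFNγ + LPS with DGAT1i. Points are the 3 libraries of a group and lines their means. Irf1, Irf7 and Batf2 lie far higher in both IFNγ + LPS groups, Irf3 overlaps across the 4 groups, and Irf9 and Batf2 are lower in IFNγ + LPS with DGAT1i than without it.

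Irf1 and Irf2 are a classical pair that bind the same sites, Irf1 as an activator and Irf2 as a weaker activator or antagonist. Irf1 (ENSMUSG00000018899.16, chr11:53770014-53778374, GRCm38) read 43.4, 44.3 and 38.7 CPM in the M0 libraries and 1981, 1983 and 1995 CPM in IFNγ + LPS. The activated libraries were close to each other and far above all resting ones. Its log2 fold change was 5.56 (SE 0.07, edgeR adjusted p = 3.84e-56). Irf2 (ENSMUSG00000031627.8, chr8:46739732-46847458) read 27.6, 24.6 and 24.8 CPM in M0 and 44.8, 47.7 and 46.1 CPM in IFNγ + LPS. All activated libraries were above all resting ones, and the log2 fold change was 0.85 (SE 0.10, edgeR adjusted p = 4.27e-11). Per kilobase of exon, the ratio of Irf1 to Irf2 mRNA went from 3.06 ± 0.25 (SD, n = 3) in M0 to 80.01 ± 2.45 (SD, n = 3) in IFNγ + LPS.

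Irf3 and Irf7 are the pair that drives type I interferon genes, Irf3 as the factor present at rest and Irf7 as the inducible one. Irf3 (ENSMUSG00000003184.15, chr7:44997648-45002848) read 42.3, 44.5 and 41.9 CPM in M0 and 38.3, 38.3 and 44.8 CPM in IFNγ + LPS. The groups overlapped, and the log2 fold change of -0.08 (95% interval -0.26 to 0.10) did not pass the test (edgeR adjusted p = 0.402). With scaling by library size only, Irf3 was called lower at a log2 fold change of -0.55, close to the median of all genes under that scaling (edgeR adjusted p = 2.41e-07, against 0.162 to 0.762 with single libraries left out). Irf7 (ENSMUSG00000025498.14, chr7:141262706-141266481) read 17.3, 18.5 and 16.6 CPM in M0 and 1997, 2123 and 2052 CPM in IFNγ + LPS. The log2 fold change was 6.88 (SE 0.08, edgeR adjusted p = 1.39e-57), next to that of Batf2, and ranked 129th from the top among the 11760 genes. Per kilobase, the ratio of Irf7 to Irf3 was 0.371 in M0 and 46.6 in IFNγ + LPS.

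Irf9 is the DNA-binding subunit of ISGF3, the complex that carries the type I interferon signal to ISREs. Irf9 (ENSMUSG00000002325.14, chr14:55603571-55610030) read 57.4, 57.3 and 53.9 CPM in M0 and 110.1, 108 and 103 CPM in IFNγ + LPS. The groups did not overlap, and the log2 fold change was 0.93 (SE 0.07, edgeR adjusted p = 1.10e-17). Stat2, a partner of Irf9 in this complex, rose by 3.65 on the log2 scale, and the difference between its change and that of Irf9 was not tested. Irf9 shares 123 bases of exon with Rnf31 on the same strand, 2.28% of its exon length, where reads could not be told apart. Irf1, Irf3, Irf7 and Batf2 share 45 to 135 bases of exon with genes on the other strand.

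Irf8 specifies myeloid lineages together with Spi1 (PU.1), and Batf2 is a leucine zipper protein that pairs with Jun proteins and can act with Irf1. Irf8 (ENSMUSG00000041515.9, chr8:120736358-120756694) read 143, 147 and 142 CPM in M0 and 785, 748 and 764 CPM in IFNγ + LPS, a log2 fold change of 2.41 (SE 0.05, edgeR adjusted p = 4.23e-42). Its span lies inside that of the gene model Gm20388 on the same strand, with 0 bases of exon in common. Batf2 (ENSMUSG00000039699.13, chr19:6140983-6172476) rose from 2.47, 3.06 and 2.51 CPM to 318, 332 and 291 CPM. In M0 these values rested on 58 reads over 3 libraries, and in IFNγ + LPS on 4906. Its log2 fold change was 6.86 (SE 0.11, edgeR adjusted p = 6.32e-48). Dendritic cells also use Irf8, and their markers Clec9a and Xcr1 were at 8.17 and 5.53 CPM in IFNγ + LPS against 0.0484 and 0.0464 CPM in M0, which is 1 read each. Among the other dendritic cell markers, Ccr7 went from 0 reads in M0 to 53, Zbtb46 from 6 to 10 and Flt3 from 1 to 2. Cd209a and Siglech had 0 reads in IFNγ + LPS. The part of such cells in the Irf8 and Batf2 values was not tested.

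Irf5, a Toll-like receptor factor linked to proinflammatory cytokines, and Irf4, linked to alternative activation, went in opposite directions. Irf5 (ENSMUSG00000029771.12, chr6:29526625-29541871) read 190.0, 187 and 195 CPM in M0 and 682, 699.9 and 754 CPM in IFNγ + LPS. Its log2 fold change was 1.90 (SE 0.06, edgeR adjusted p = 2.67e-36). Exons of Tnpo3 on the other strand share 411 bases with Irf5, 14.1% of its exon length, and the sources used here differ on whether the library kit kept the strand. Irf4 (ENSMUSG00000021356.9, chr13:30749226-30766976) was scarce, at 4.94, 4.13 and 2.51 CPM in M0 and 1.05, 0.540 and 0.375 CPM in IFNγ + LPS, or 83 against 10 reads over 3 libraries. The groups did not overlap, and Irf4 fell by 2.55 on the log2 scale (SE 0.43, edgeR adjusted p = 6.61e-07). B cells also use Irf4, and their 5 markers summed to 2.03 to 2.66 CPM in M0 and 0.211 to 0.749 CPM in IFNγ + LPS. Cd79b, the 1 of the 5 with enough reads for a test, was lower in IFNγ + LPS by -4.76 on the log2 scale. The part of B cells in the Irf4 values was not tested.

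Levels of different members were compared per kilobase of exon. In M0 the order was led by Irf5 at 65.7 CPM per kb, 50.7% of the summed level of the 9 members, with Irf8 at 20.4 and Irf3 at 12.5. Irf1 (10.6) and Irf9 (10.4) followed with overlapping libraries, then Irf7 (4.62) and Irf2 (3.47), and last Batf2 (1.06) and Irf4 (0.787), which overlapped too. In IFNγ + LPS, Irf7 at 545 and Irf1 at 499.6 CPM per kb led with 34.9% and 32.0% of the sum, ahead of Irf5 (245), Batf2 (124), Irf8 (109), Irf9 (19.9), Irf3 (11.8), Irf2 (6.25) and Irf4 (0.134), with no overlap between neighbours. When the longest transcript was used as length, Irf1 came before Irf7 and Irf8 before Batf2 in IFNγ + LPS, and Irf2 before Irf7 in M0. Among 11731 genes with a length, Irf5 ranked 497th per kilobase in M0 and 186th in IFNγ + LPS, and Irf7 and Irf1 rose from 6467th and 3528th to 79th and 90th. The summed level of the 9 members was 129 ± 0.93 CPM per kb (SD, n = 3) in M0 and 1560.4 ± 21.2 (SD, n = 3) in IFNγ + LPS.

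**Figure D2:**
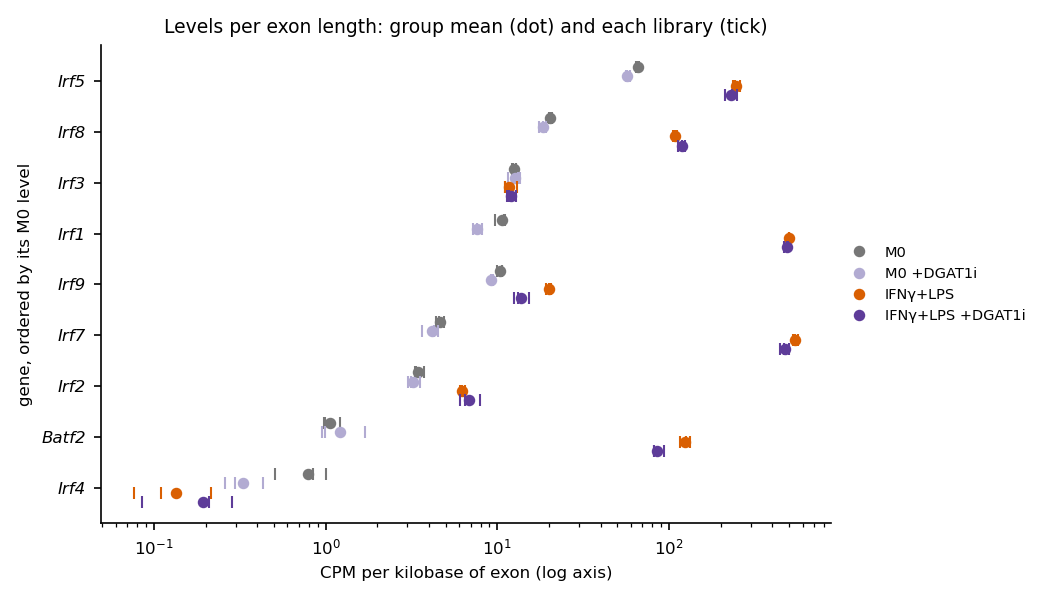
CPM per kilobase of exon (log axis) of each member, in the order of the M0 levels, with a dot for the group mean and a tick for each library. Irf5 leads in both M0 groups at 65.7 and 57.2, whereas Irf7 and Irf1 lead in both IFNγ + LPS groups.

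With DGAT1i present in both arms, IFNγ + LPS raised 7 members, those named for the comparison without it, and lowered none. Of the neutrophil markers 3 of 4 tested rose here (S100a8, S100a9 and Ngp, by 0.50 to 2.72 on the log2 scale), where 0 rose and 2 fell without inhibitor, and all 3 dendritic markers tested rose. Their part in the members' values was not tested. Of all genes tested, 70.6% were called (35.3% higher, 35.3% lower), and 7 members did not overlap, against 72.5% of all genes. The log2 fold changes were 5.98 for Irf1, 1.08 for Irf2, 2.01 for Irf5, 6.83 for Irf7, 2.68 for Irf8, 0.57 for Irf9 and 6.15 for Batf2. Irf2 was at 0.66 and Irf9 lost its call (log2 fold change 0.15) when libraries were scaled by their size only, a scaling that moved the median of all genes to -0.43 and the split of calls from 4152 higher and 4151 lower to 2333 and 6799. Irf3 (-0.09) and Irf4 (-0.79, 95% interval -1.77 to 0.20) did not pass the test, although under that scaling both were called lower, at -0.51 and -1.20. Irf4 read 1.46, 1.28 and 2.11 CPM in M0 with DGAT1i and 1.03, 0.417 and 1.40 CPM in IFNγ + LPS with DGAT1i, and overlapped. The order per kilobase in the latter group was Irf1 (484) and Irf7 (472), which overlapped, then Irf5 (230.4), Irf8 (118), Batf2 (85.6), Irf9 (13.7) and Irf3 (11.99), which overlapped, Irf2 (6.84) and Irf4 (0.194). The summed level was 1423 ± 69.8 CPM per kb (SD, n = 3), and 114 ± 3.72 (SD, n = 3) in M0 with DGAT1i.

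The question of the study was what blocking triacylglycerol synthesis does to inflammatory macrophages. In IFNγ + LPS, DGAT1i lowered Batf2, Irf9 and Irf7 and raised none of the members. Batf2 stood at 0.688 times and Irf9 at 0.690 times their levels without the inhibitor, and Irf7 at 0.865 times. Irf1, the most abundant member besides Irf7, was not called. Of all genes tested 29.8% were called (13.5% higher, 16.3% lower), and of the 9 members 3. The libraries with and without inhibitor did not overlap for 5 members, against 39.7% of all genes, and the median log2 fold change was -0.05 over the members and -0.01 over all genes.

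Batf2 fell from 318, 332 and 291 CPM to 207, 207 and 235 CPM. Each library with DGAT1i was below each library without it, and the log2 fold change was -0.54 (SE 0.06, edgeR adjusted p = 2.46e-10). Irf9 fell from 110.1, 108 and 103 CPM to 67.5, 82.8 and 71.2 CPM. Again the groups were apart, at a log2 fold change of -0.53 (SE 0.07, edgeR adjusted p = 2.80e-08). Irf7 went from 1997, 2123 and 2052 CPM to 1679.9, 1765 and 1898 CPM, a smaller change of -0.21 on the log2 scale (SE 0.05, edgeR adjusted p = 0.00136). These 3 calls held under the 7 other settings and in the 12 fits that each left out 1 library.

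For the other 6 members the change by DGAT1i in IFNγ + LPS did not pass the test. Irf1 read 1869, 1932 and 1973 CPM with DGAT1i, all slightly below the 3 libraries without it, and its log2 fold change of -0.05 had a 95% interval of -0.15 to 0.05. Irf8 read 835, 796 and 874 CPM, all above the libraries without DGAT1i, at a log2 fold change of 0.12 (95% interval 0.02 to 0.22, edgeR adjusted p = 0.0539). It passed the threshold when only the 6 libraries compared were fitted (log2 fold change 0.14, edgeR adjusted p = 0.0286) or when replicate 2 with both agents was left out (0.15, edgeR adjusted p = 0.0362), and missed it without the filter on low counts (edgeR adjusted p = 0.390). Irf5 (-0.09, interval -0.20 to 0.02), Irf2 (0.13, interval -0.06 to 0.32) and Irf3 (0.03, interval -0.16 to 0.22) overlapped between the groups. Irf5 was called lower, at -0.15, when replicate 3 with both agents was left out. Irf4 had 10 and 13 reads in these groups, and its interval was wide (-0.75 to 1.82).

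Neutrophil markers moved with this comparison: Ngp, S100a8, S100a9 and Ltf, the 4 of 8 with enough reads for a test, were higher with DGAT1i in IFNγ + LPS, by 1.70 to 2.68 on the log2 scale. Of 3 dendritic cell markers tested, Clec9a and Xcr1 were lower, by -1.73 and -2.65, and Ccr7 was not called (0.33). The part of other cells in the values of Irf7, Irf9 and Batf2 was not tested.

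In M0, DGAT1i lowered Irf4, Irf1, Irf5 and Irf8, and Batf2, Irf9 and Irf7 were not called. Of all genes tested 24.4% were called (11.0% higher, 13.4% lower), and of the members 4, all lower. The groups did not overlap for 5 members, against 37.8% of all genes, and the median log2 fold change was -0.16 over the members and 0.00 over all genes. With scaling by library size only, the split of calls over all genes moved from 1298 higher and 1571 lower to 885 and 2092, and Irf9 was called as well, at a log2 fold change of -0.23.

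Irf1 went from 43.4, 44.3 and 38.7 CPM in M0 to 28.7, 32.4 and 30.2 CPM with DGAT1i. The groups were well apart, and the log2 fold change was -0.47 (SE 0.08, edgeR adjusted p = 1.40e-06). Irf4 went from 4.94, 4.13 and 2.51 CPM to 1.46, 1.28 and 2.11 CPM, or from 83 to 36 reads over 3 libraries. Its log2 fold change of -1.23 (SE 0.32, edgeR adjusted p = 0.00227) was not called by DESeq2 (adjusted p = 0.0564, against 5.91e-04 to 0.0386 in edgeR with single libraries left out). The B cell markers summed to 0.531 to 1.85 CPM in M0 with DGAT1i, and Cd79b was lower there than in M0 as well, by -1.11. Irf5 went from 190.0, 187 and 195 CPM to 163, 164 and 171 CPM, a log2 fold change of -0.20 (SE 0.06, edgeR adjusted p = 0.00741). Irf8 went from 143, 147 and 142 CPM to 131, 124 and 135 CPM at -0.15 (SE 0.06, edgeR adjusted p = 0.0494).

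The Irf8 call in M0 sat at the threshold. Over the 12 fits that each left out 1 library its log2 fold change stayed between -0.18 and -0.11, and it lost the call in 7 of them, namely when the library left out was 1 of the 3 of M0, replicate 1 or 3 of IFNγ + LPS, or replicate 1 or 2 of M0 with DGAT1i (edgeR adjusted p from 0.0351 to 0.238 over the 12). It was not called without the filter on low counts either (edgeR adjusted p = 0.124). Irf9 read 49.3, 49.7 and 50.5 CPM with DGAT1i, all below the M0 libraries, but did not pass the test (log2 fold change -0.17, edgeR adjusted p = 0.0851). For Irf7 (-0.16, interval -0.36 to 0.05), Irf2 (-0.10, interval -0.31 to 0.11), Irf3 (0.03, interval -0.13 to 0.20) and Batf2 (0.17, interval -0.34 to 0.68) the libraries overlapped. Batf2 had only 58 and 67 reads in the resting groups.

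**Figure D3:**
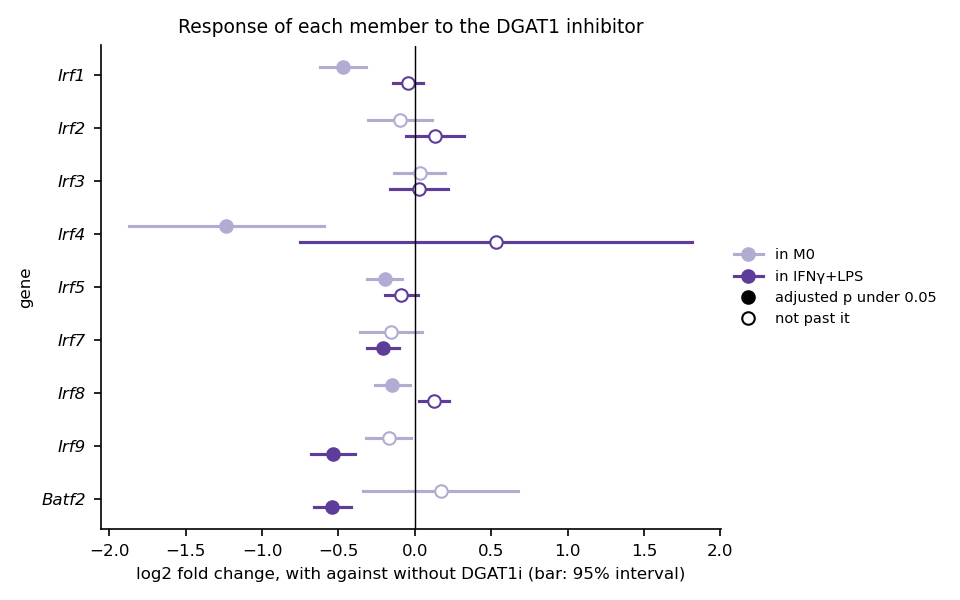
Log2 fold change by DGAT1i for each member in M0 and in IFNγ + LPS, with bars for the 95% interval and filled points for an adjusted p under 0.05. The filled points are Irf1, Irf4, Irf5 and Irf8 in M0 and Irf7, Irf9 and Batf2 in IFNγ + LPS, and the widest bars are those of Irf4.

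Whether the DGAT1i response itself depended on activation was tested as the difference between the response in IFNγ + LPS and that in M0. This difference was called for 18.5% of all genes (8.66% higher, 9.80% lower) and for 4 of the 9 members, 2 higher and 2 lower. All 4 neutrophil markers tested were called higher for the difference (median 2.44), and of the 3 dendritic markers tested 0 were called. Their part in the members' differences was not tested. With library size only as the scaling, the split over all genes went from 1019 higher and 1152 lower to 1229 and 882, and the directions of the 4 members were kept. For Irf1 the response was 0.43 higher on the log2 scale in IFNγ + LPS than in M0 (SE 0.09, edgeR adjusted p = 3.53e-04), the responses being -0.05 and -0.47. Irf8 had a difference of 0.27 (SE 0.08, edgeR adjusted p = 0.00676), from responses of 0.12 and -0.15, and missed the threshold without the filter on low counts (0.23, edgeR adjusted p = 0.0533, against 0.00458 to 0.0419 with single libraries left out). For Irf9 the difference was -0.36 (SE 0.10, edgeR adjusted p = 0.00879), and it was not called by DESeq2 (adjusted p = 0.0553, against 0.00126 to 0.0402 in edgeR with single libraries left out). Batf2, at -0.71 (SE 0.26, edgeR adjusted p = 0.0486), rested on few reads in M0 and on single libraries: without replicate 2 of M0 with DGAT1i, which read 4.26 CPM against 2.39 and 2.51 CPM in the others, the difference was -0.41 (edgeR adjusted p = 0.400, against 0.0259 to 0.118 with any other library left out). It also missed the threshold when replicate 1 or 3 of M0, replicate 1 or 2 of IFNγ + LPS, or replicate 1 or 2 with both agents was left out, and under RLE scaling (adjusted p = 0.0570), library size only (0.0695) and DESeq2 (0.0853).

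The members called in only one of the states did not all differ between the states. Irf7, called in IFNγ + LPS and not in M0, had a difference of -0.05 (95% interval -0.28 to 0.18). Irf5, called in M0 and not in IFNγ + LPS, had a difference of 0.11 (interval -0.05 to 0.27). Irf4 had the largest difference, 1.77, but with an interval of 0.31 to 3.22 it did not pass after adjustment (edgeR adjusted p = 0.0830). It was called when replicate 3 of M0 (1.99) or replicate 2 with both agents (2.12) was left out.

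Genes that act before the IRFs were read from lists of the pathway. Among 6 interferon genes (Ifnb1, Ifna1, Ifna2, Ifna4, Ifna5, Ifng) none had enough reads for a test. Ifnb1, the target of Irf3 and Irf7, had 0 reads in M0, which allows a level of up to 0.139 CPM at 3 reads over the group, with 19 reads in IFNγ + LPS and 4 in IFNγ + LPS with DGAT1i. Such limits cover counting error only. Of 9 interferon receptors, JAK kinases and STATs, IFNγ + LPS raised 8 and lowered Ifngr1 (-1.51), against 6 higher and 2 lower with library size only. Within IFNγ + LPS, DGAT1i lowered 4 of the 9, among them Tyk2 (-0.42) and Jak2 (-0.26), and raised Ifnar2 (0.28). In M0 it lowered Ifngr1 (-0.20), with 2 genes called lower there under RLE scaling and 3 with library size only. Of all genes tested, 73.3% were called with IFNγ + LPS, 29.8% with DGAT1i in IFNγ + LPS (16.3% lower) and 24.4% with DGAT1i in M0.

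Of 15 adaptors and kinases that lead to IRF phosphorylation, 12 rose with IFNγ + LPS and Irak1 fell, whereas with library size only 9 were called higher and 5 lower. Over all genes tested, 37.1% were called higher and 36.2% lower with IFNγ + LPS. For DGAT1i the shares were 16.3% lower and 13.5% higher in IFNγ + LPS, and 13.4% lower and 11.0% higher in M0. In IFNγ + LPS, DGAT1i lowered 6 of the 15, raised 2 and left 7 short of the test. The largest changes were in Ikbke, a kinase of Irf3 and Irf7, at -1.22 (SE 0.05, edgeR adjusted p = 1.21e-25), and in Tmem173 (STING), an adaptor of DNA sensing, at -1.20 (SE 0.08, edgeR adjusted p = 2.44e-17). Ikbke read 393, 390.3 and 395 CPM without DGAT1i and 165, 164 and 179 CPM with it. Myd88, the adaptor that binds Irf5 and Irf7, fell by 0.57 on the log2 scale. In M0, too, Ikbke (-0.60) and Tmem173 (-0.86) were lower with DGAT1i, among 4 genes lower and 4 higher, a split that was 5 lower and 2 higher with library size only and 4 lower and 2 higher with DESeq2. The difference between the states was called for Ikbke (-0.61, edgeR adjusted p = 1.02e-07) and not for Tmem173 (-0.34, edgeR adjusted p = 0.0624). It was called, as lower, for 5 of the 15 genes, against 18.5% of all genes tested (9.80% lower). With library size only or DESeq2 it was called for 1 of the 15.

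Among DNA-binding partners, 8 of 9 were tested. IFNγ + LPS raised 7 of them, led by Batf (3.82), Junb (2.23) and Batf3 (1.42), and lowered Jun (-0.17). Over all genes, 73.3% were called in that comparison and 29.8% with DGAT1i in IFNγ + LPS. Batf, a relative of Batf2 that binds DNA with Irf4 and Irf8, fell with DGAT1i in IFNγ + LPS from 20.4, 23.0 and 22.1 CPM to 12.4, 8.34 and 8.87 CPM, a log2 fold change of -1.14 (SE 0.17, edgeR adjusted p = 1.44e-07). In the same comparison Spi1, Rela and Junb were lower and Jun (0.34) and Jund (0.30) higher. Of 8 corepressors and negative regulators, DGAT1i lowered Usp18 (-0.70), Trim21 (-0.57) and Rbck1 (-0.25) in IFNγ + LPS and raised Irf2bpl (0.44), a relative of the Irf2-binding corepressors.

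Of 17 genes with ISRE-driven expression, all 17 rose with IFNγ + LPS, with a median log2 fold change of 6.02, led by Ifit2 (9.31), Oasl1 (9.07) and Rsad2 (8.78). IFNγ + LPS raised 37.1% of all genes tested, and DGAT1i in IFNγ + LPS lowered 16.3% of them and raised 13.5%. Of the 17 ISRE genes, DGAT1i in IFNγ + LPS lowered 10 and raised 2, with a median of -0.35 against -0.01 over all genes. The lowest were Mx2 (-0.78), Isg20 (-0.63) and Ifit3 (-0.56), and the 2 that rose were Oasl1 (0.33) and Ifit2 (0.17). In M0, DGAT1i lowered Mx2 (-1.15), Mx1 (-0.78) and Oas1a (-0.41) and raised Ifih1 (0.21), and 13 of the 17 did not pass, where 24.4% of all genes were called. No ISRE gene was called higher in M0 under RLE scaling, library size only or DESeq2. The difference between the states was called for 3 of the 17, Ifit3 (-0.92), Ifih1 (-0.64) and Oas3 (-0.27), against 18.5% of all genes, and for 2 under RLE scaling, library size only and DESeq2.

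Of 17 genes known as targets of IFNγ with Irf1 or Irf8, all 17 rose with IFNγ + LPS, with a median of 6.94, which was the same when Nos2 and Cxcl9, at 0 reads in M0, were set at their lower bounds. Of all genes tested, IFNγ + LPS raised 37.1%, and DGAT1i in IFNγ + LPS lowered 16.3% and raised 13.5%. Of the 17 targets, DGAT1i in IFNγ + LPS lowered 11 and raised 2, with a median of -0.29 against -0.01 over all genes. The chemokine genes Cxcl10 (-0.86) and Cxcl9 (-0.51) and the immunoproteasome subunit gene Psmb10 (-0.60) fell most, while Nos2 (0.23), the inducible nitric oxide synthase, and Cd274 (0.20), which encodes PD-L1, rose. Cxcl10 read 2289, 2395 and 2342.5 CPM without DGAT1i and 1279.96, 1272 and 1308 CPM with it. In M0, Cd274 rose by 1.01 and Psmb10 fell by 0.23 on the log2 scale, with 15 of the 17 not passing, where 24.4% of all genes were called. Nos2 and Cxcl9, counted among these 15, had 0 reads in both M0 groups and could not pass. With library size only as the scaling, 1 was called higher and 4 lower in M0, and with DESeq2 2 higher and 1 lower.

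Among 5 cytokine genes linked to Irf5, 3 were tested for DGAT1i in IFNγ + LPS, where 29.8% of all genes were called. Il6 (-1.13) and Tnf (-0.70) were lower with DGAT1i. Il12b was not called, with a mean of 83.9 CPM without DGAT1i and 103 CPM with it. Of 4 genes of alternative activation linked to Irf4, Mrc1 and Chil3 were tested. Both were lower with IFNγ + LPS, by -5.31 and -1.48, and both were lower with DGAT1i in M0, by -0.40 and -1.01, as Irf4 was. For DGAT1i in IFNγ + LPS, RLE scaling, library size only and DESeq2 each changed the count of genes called higher or lower in any list by at most 1.

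**Figure D4:**
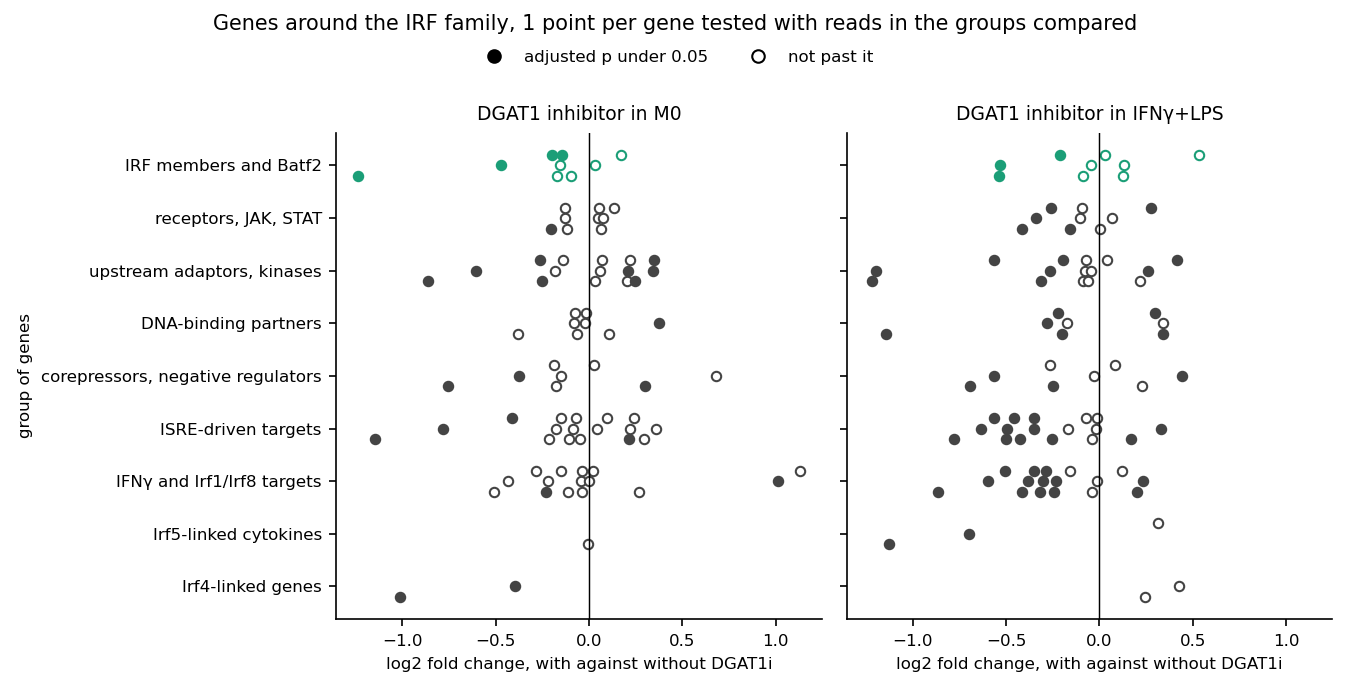
Log2 fold change by DGAT1i in M0 and in IFNγ + LPS for the 9 members and the genes around them, with 1 point per gene and filled points for an adjusted p under 0.05. In IFNγ + LPS most filled points of both target lists lie below 0 (10 of 12 and 11 of 13), and the leftmost points among the upstream genes are Ikbke and Tmem173.

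Over the 12 libraries, the genes most like each member in log2 CPM were found among 9877 genes with an average of at least 2 on that scale. They were Slfn2, Gm49342 and Gm8995 for Irf1 (highest Pearson r 0.9997), Irgm1, Cxcl9 and Sp140 for Irf7 (0.9997), Tspo, Il1rn and Ifit2 for Irf8 (0.9995), Tgtp1, Slc6a19 and Ifi35 for Batf2 (0.9994) and Il4ra, Rnf34 and Ogfr for Irf5 (0.9987). Irf9 was most like Akna, Ccnd2 and Lcp2 (0.992), Irf2 most like Fbxo42, Zswim4 and Slc23a2 (0.985), and Irf3 most like Ankrd52, Pskh1 and Tyw1 (0.851). Among the members themselves, Irf1, Irf5, Irf7, Irf8 and Batf2 correlated with each other at r between 0.991 and 0.999. These libraries fall into resting and activated ones, so that the points share that split, and r is given as a description.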

How the data were processed

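RNA sequencing of mouse bone marrow-derived macrophages gave 12 libraries in 4 groups of 3. The authors deposited raw read counts per gene for 47937 genes, without normalization. The submitters' processing notes name GRCm38 and DESeq2. Aligner and counting tool: not given in the sources used here. The methods and the labels name different library kits, TruSeq stranded mRNA and NEBNext low-input, so that strandedness is unsettled. Gene names and positions came from GENCODE M21 on GRCm38, which matched 47310 identifiers.

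The analysis of the counts used edgeR 4.0.16 under R 4.3.3 (filterByExpr, which kept 11760 genes, TMM, glmQLFit robust with 1 mean per group, glmQLFTest). An adjusted p under 0.05 (Benjamini-Hochberg, two-sided) was a call. The common biological coefficient of variation was 0.0507. CPM is TMM-scaled, and levels between genes were divided by the union of exons. SE is the log2 fold change over the square root of F, and intervals are at 95%. The pipeline was tested on simulated data.

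The members and the lists of related genes were chosen with earlier results of these data known. Named are the 9 members, up to 3 genes per list and comparison with the largest change past the threshold, and the 3 genes most correlated with a member of average log2 CPM of at least 1. Ifngr1, Irak1, Jun, Jak2, Spi1, Rela, Junb, Rbck1, Oasl1, Ifit2, Ifih1, Nos2, Cd274 and the markers of other cells fell outside this rule in a comparison where they are named, and were chosen there after their values were seen. Alternatives were RLE factors or library size only, no filter or a mean CPM of 1, DESeq2 1.42.0, the replicate block, only the 6 libraries compared, transcript length, and each library left out. The list counts under other scalings were added after seeing the data. Python 3.11.15 with matplotlib 3.10.9 drew the figures. Some genes are not reported here.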

Additional observations from a re-analysis of the deposited data

Results flagged for a closer look

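The response to DGAT1i differed between IFNγ + LPS and M0 for 4 members by the test of the difference itself (edgeR's quasi-likelihood test with all 12 libraries). Of all genes tested, 18.5% were called by this test. The difference on the log2 scale, IFNγ + LPS minus M0, was 0.43 for Irf1, where the single responses were -0.05 and -0.47. For Irf8 it was 0.27, from responses of 0.12 and -0.15, and it was not called without the filter on low counts (0.23). For Irf9 it was -0.36, from -0.53 and -0.17, and it was not called by DESeq2. For Batf2 it was -0.71, from -0.54 and 0.17, with 58 and 67 reads behind the M0 groups. The Batf2 difference missed the threshold in 7 of the 12 fits that left out 1 library (down to -0.41 without replicate 2 of M0 with DGAT1i) and under 4 of 6 other settings.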

How the results depend on the processing

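Of 540 member values with 1 library left out, 522 kept their side of the threshold, 4 came to pass it and 14 missed it. Of 304 values under other settings, 289 kept their side, 6 came to pass the threshold and 9 missed it. None of these values was called in the opposite direction. Some values short of the threshold changed sign, as Batf2 did for DGAT1i in M0 (-0.13 to 0.32 with 1 library left out). With 1 library left out, the number of members called was 8 in each fit for IFNγ + LPS against M0 and 7 in each with DGAT1i in both arms, and it ran from 3 to 4 for DGAT1i in IFNγ + LPS, for DGAT1i in M0 and for the difference of the responses. DESeq2 called 2 members for this difference (Irf1 and Irf8, both higher) in place of 4. Over all genes it called 1469 in place of 2171, and the cause was not tested.

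The replicate numbers did not clearly pair the libraries: of 18 pairs with the same number, 1 correlated over 0.1 in their deviations from the group means (range -0.070 to 0.109, median 0.035). The 36 pairs with different numbers ran from -0.110 to 0.075, with a median of -0.015. Pairs with the same number among the groups labelled 18 h were all positive, from 0.030 to 0.109. With the replicate block, 8, 7, 4, 4 and 3 members were called in the 5 comparisons, where Irf8 was added for DGAT1i in IFNγ + LPS (log2 fold change 0.12, edgeR adjusted p = 0.0464) and Batf2 lost for the difference (-0.71, edgeR adjusted p = 0.0509). The lowest members rested on few reads: Irf4 had 10 to 83 reads per group and Batf2 58 and 67 in the M0 groups.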
